A study of Mus musculus with 22 samples.

Results

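Tnfrsf26 and its neighbours on the distal end of mouse chromosome 7 encode a set of unrelated cell surface and signalling proteins and 1 long noncoding RNA. The 10 genes described here are Tnfrsf26, Tnfrsf22, Tnfrsf23, Tspan32, Mrgpre, Osbpl5, Trpm5, Cd81, Shank2 and Kcnq1ot1, taken by symbol from the stretch between 143.0 and 144.5 Mb (GRCm38). They are 10 of the 48 genes annotated there, of which 21 are protein-coding, and 10 of the 21880, 26097 and 25676 genes listed for experiment 1, experiment 2 and culture. They are taken to have been selected on their differences between mouse strains in experiment 2, since the rule does not state the values and all of the 10 that could be tested were called there. The strain differences are therefore given as a description, with no test. At the start of the stretch Tspan32 is the outermost gene wholly inside, Tspan32os crosses the border and Ascl2 lies outside. At its end Cttn, which is not among the 10, is the last gene inside, Ppfia1 crosses the border and Faddos lies outside.

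RNA was sequenced from 22 libraries of immature B cells sorted from mouse spleen by the surface markers B220 and CD93. In experiment 1, 3 depleted libraries (Tcrd-GDL mice given diphtheria toxin) were set against 3 untreated Tcrd-GDL libraries. In experiment 2, 2 depleted libraries (Tcrd-GDL with toxin) and 3 toxin control libraries (Tcrd-H2BeGFP mice with the same toxin) were set against 5 untreated Tcrd-GDL libraries. In culture, cells of Tcrd-H2BeGFP mice without toxin were kept with gamma delta T cells (3 libraries) or alone (3 libraries). Toxin was injected into the peritoneum 2 times with 48 h between (15 ng for each g of the mouse), and sorting followed 8 days after the first injection. Tcrd-GDL mice lose their gamma delta T cells on toxin, as the design text has it, and the labels do not state whether Tcrd-H2BeGFP mice carry a toxin receptor. The 13 Tcrd-GDL libraries and the 9 Tcrd-H2BeGFP libraries thus each include libraries with and without toxin, but all Tcrd-H2BeGFP libraries without toxin were cultured. The labels give neither age nor sex, and do not say whether libraries of a group come from separate mice, so a p-value here covers only spread among libraries that may be technical. The depleted group of experiment 1 and both culture groups held male and female libraries (below), so each came from more than 1 mouse.

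Tnfrsf22 and Tnfrsf23 encode mouse decoy receptors for TRAIL, a ligand of the tumour necrosis factor family that triggers cell death through a receptor with a death domain, which the decoys lack. Tnfrsf26 encodes a further receptor of the superfamily. Tspan32 and Cd81 encode tetraspanins, membrane proteins that gather other proteins into domains, and CD81 is found on B cells among many other cell types. Kcnq1ot1 is a long noncoding RNA, transcribed from the paternal chromosome against the direction of Kcnq1, that silences neighbouring genes in cis, several of them, among them Cd81, Tspan32 and Osbpl5, in the placenta. Osbpl5 encodes a lipid transfer protein of the oxysterol-binding protein family, Mrgpre an orphan receptor of the Mas-related G protein-coupled family, Trpm5 a calcium-activated cation channel known from taste cells and Shank2 a scaffold protein of the postsynaptic density.

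The genes lie in the following order on chromosome 7 (GENCODE M21, GRCm38). Tspan32 (ENSMUSG00000000244) spans 143005046 to 143019644 on the plus strand, Cd81 (ENSMUSG00000037706) spans 143052739 to 143067934 on the plus strand and Trpm5 (ENSMUSG00000009246) spans 143069153 to 143094642 on the minus strand. Kcnq1ot1 (ENSMUSG00000101609) spans 143203458 to 143296549 on the minus strand, wholly inside Kcnq1 on the other strand. Tnfrsf26 (ENSMUSG00000045362) spans 143607659 to 143628722 on the minus strand, Tnfrsf22 (ENSMUSG00000010751) spans 143634806 to 143649661 on the minus strand and Tnfrsf23 (ENSMUSG00000037613) spans 143665809 to 143685872 on the minus strand. Osbpl5 (ENSMUSG00000037606) spans 143688762 to 143756985 on the minus strand, Mrgpre (ENSMUSG00000048965) spans 143778363 to 143784500 on the minus strand and Shank2 (ENSMUSG00000037541) spans 144001928 to 144424494 on the plus strand. All but the antisense gene Kcnq1ot1 are protein-coding.

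The promoters of 5 of the genes are shown, because these genes stood in opposite directions between the strains in experiment 2. Tspan32, Tnfrsf23 and Mrgpre had lower values in toxin control libraries than in untreated libraries, and Cd81 and Trpm5 had higher values. The sequences are from RefSeq (GRCm38.p6), whose table holds promoters for 7 of the 10 genes, and run from 250 bases before to 50 bases after the annotated start, written in the direction of transcription. Capitals mark matches on either strand to the GC box GGGCGG, the CCAAT box, the TATA box TATAAA, the octamer ATGCAAAT bound by POU factors, the ETS family motif CCGGAAG or the E box CACGTG, none of which overlap another match here.
Tspan32, chr7:143004796-143005095, plus strand: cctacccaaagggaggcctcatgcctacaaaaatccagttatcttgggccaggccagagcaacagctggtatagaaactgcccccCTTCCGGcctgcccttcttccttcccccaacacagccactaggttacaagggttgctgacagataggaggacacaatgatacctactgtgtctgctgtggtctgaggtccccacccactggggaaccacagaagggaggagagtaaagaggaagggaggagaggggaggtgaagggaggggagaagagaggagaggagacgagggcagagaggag
Tnfrsf23, chr7:143685826-143686125, minus strand: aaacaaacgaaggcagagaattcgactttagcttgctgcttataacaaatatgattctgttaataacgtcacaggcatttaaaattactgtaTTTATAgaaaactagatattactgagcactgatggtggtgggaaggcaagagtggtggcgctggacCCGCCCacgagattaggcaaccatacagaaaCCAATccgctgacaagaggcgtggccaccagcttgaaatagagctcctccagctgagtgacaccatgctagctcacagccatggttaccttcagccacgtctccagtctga
Mrgpre, chr7:143784451-143784750, minus strand: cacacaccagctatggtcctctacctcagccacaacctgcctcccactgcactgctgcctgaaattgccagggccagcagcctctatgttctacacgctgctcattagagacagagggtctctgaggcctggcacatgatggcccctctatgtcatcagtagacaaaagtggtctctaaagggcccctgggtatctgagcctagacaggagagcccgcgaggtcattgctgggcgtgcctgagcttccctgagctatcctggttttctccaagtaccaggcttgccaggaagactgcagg
Cd81, chr7:143052500-143052799, plus strand: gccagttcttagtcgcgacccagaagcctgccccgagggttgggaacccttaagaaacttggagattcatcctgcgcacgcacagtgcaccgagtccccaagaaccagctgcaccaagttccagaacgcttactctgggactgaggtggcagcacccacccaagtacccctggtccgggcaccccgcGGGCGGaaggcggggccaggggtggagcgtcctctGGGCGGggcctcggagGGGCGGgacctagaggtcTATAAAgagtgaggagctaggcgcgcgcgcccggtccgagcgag
Trpm5, chr7:143094593-143094892, minus strand: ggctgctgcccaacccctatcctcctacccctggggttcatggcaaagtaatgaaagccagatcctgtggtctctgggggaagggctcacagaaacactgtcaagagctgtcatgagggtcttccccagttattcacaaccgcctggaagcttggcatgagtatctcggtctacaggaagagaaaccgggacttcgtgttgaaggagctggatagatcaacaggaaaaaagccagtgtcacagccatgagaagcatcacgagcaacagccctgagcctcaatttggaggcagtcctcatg
The Cd81 window holds 3 matches to GGGCGG, 1 to TATAAA and 23 CG dinucleotides. The Tspan32 window holds 1 match to CCGGAAG and 2 CG dinucleotides. In the Tnfrsf23 window there are 1 match each to the TATA, GC and CCAAT boxes and 9 CG dinucleotides. No motif of the 6 matched the windows of Mrgpre and Trpm5, which hold 4 and 5 CG dinucleotides. Among all 32851 windows of the RefSeq table, 35.7% hold the GC box, 37.4% the CCAAT box, 13.6% the TATA box, 8.86% the ETS motif, 7.15% the E box and 1.74% the octamer, and the median window holds 7 CG dinucleotides.

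Values below are normalized counts, which the authors scaled within each of 3 separate tables, so levels were compared within a table. The depth of a library was 9794413 to 20343954 reads for experiment 1, between 22022330 and 36840455 for experiment 2, and from 17505909 to 28729574 for culture. All 10 B cell markers examined had reads in every group. Depleted replicate 1 of experiment 1 stood apart, with the fewest reads, 28.7% of them on Gm23935, a noncoding RNA gene, against 16.1% to 20.4% in the other 5. It was male by the Y-linked gene Ddx3y, at 569, as were replicates 3 of both culture groups, at 927 with gamma delta T cells and 817 alone. Depleted replicate 2 of experiment 1 held Ddx3y at 40.0 beside Xist, transcribed from an inactive X chromosome, at 9866, while Ddx3y was 0 to 1.68 in the other 4 libraries of that experiment. Because depleted replicate 1 stood apart, results of experiment 1 are given with and without it where they differ. Leaving out depleted replicate 2 instead left 0 genes called by limma.

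Tnfrsf26 was read in every Tcrd-GDL library and in only 2 of the Tcrd-H2BeGFP libraries, with 1 read each. In experiment 2 its normalized count was 224 and 174 in the depleted libraries, 0, 0 and 0 in the toxin control and 262, 298, 222, 249.8 and 271 in the untreated libraries. Set against 3 reads in the group as a whole, a mean of 0.922 and the upper limit that a count of 0 allows, it was at least 283-fold lower in the toxin control than in the untreated group, and at least 215-fold higher in the depleted group than in the toxin control. In culture it was 0, 0 and 0 with gamma delta T cells and 0.935, 0.837 and 0 alone. In experiment 1 it was 107, 188 and 162 in depleted and 146, 154 and 184 in untreated libraries. Thus the 9 Tcrd-H2BeGFP libraries held 0 or 1 read of Tnfrsf26 each and 2 in all, whether the mice had been given toxin or the cells had been cultured without it, and the 13 Tcrd-GDL libraries held 70 to 316 reads each and 2664 in all. These bounds cover counting error only.

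Of the decoy receptor genes, Tnfrsf23 was low throughout and Tnfrsf22 was intermediate. Tnfrsf23 stood at 4.39 and 11.7 in depleted, 0, 0 and 0 in toxin control and 5.81, 6.25, 6.24, 2.67 and 10.3 in untreated libraries of experiment 2. Against the same 3 reads this is at least 6.79-fold lower in the toxin control than in the untreated group, and at least 8.70-fold higher in the depleted group than in the toxin control. The culture libraries held 1 read of Tnfrsf23 in all, in a library with gamma delta T cells, and the libraries of experiment 1 held 1 to 12 reads each. For Tnfrsf22 the values were 54.8 and 54.8 in depleted, 6.99, 17.4 and 11.3 in toxin control and 38.1, 59.4, 44.9, 50.8 and 80.1 in untreated libraries, so the toxin control libraries lay below all the others and were still read. Its log2 difference was -2.15 for toxin control minus untreated and 2.20 for depleted minus toxin control, on the log2(value + 1) scale used throughout, which understates the change of low genes. In culture, where every library is of the Tcrd-H2BeGFP strain, it read 18.5, 19.2 and 13.2 with gamma delta T cells and 7.48, 25.1 and 9.96 alone. Counts of this pair are uncertain, since 719 of the 50-base words of their annotated exons are common to both genes, 17.3% of those of Tnfrsf22 and 18.0% of those of Tnfrsf23, whereas Tnfrsf26 shares 0 with either. The antisense gene E230032D23Rik overlaps all 3, and since whether counting used strand is not given in the sources used here, reads of a gene and its antisense partner cannot be told apart.

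The tetraspanin genes stood in opposite directions. Tspan32 read 1503 and 1578 in depleted libraries, 548, 612 and 531 in the toxin control and 1503, 1565, 1616, 1600.3 and 1873 in untreated libraries, and the toxin control values were all below the others. Its log2 difference was -1.53 for toxin control minus untreated and 1.45 for depleted minus toxin control. Cd81 read 1925 and 2471 in depleted libraries, 3633, 3539 and 3591 in the toxin control and 2563, 2686, 2307, 2072 and 2537 in untreated libraries. Here the toxin control values were all above the others, with differences of 0.57 and -0.72 on the log2 scale for the same pairs. They also lay closest together of the 8 genes with reads there, with a coefficient of variation of 1.31%.

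Mrgpre followed the direction of Tspan32. Its normalized counts were 372 and 414 in depleted, 127, 50.2 and 109.9 in toxin control and 299, 298, 318, 297 and 394 in untreated libraries, with log2 differences of -1.83 for toxin control minus untreated and 2.13 for depleted minus toxin control. Toxin control replicate 2 was the lowest of the 10 libraries, and without it the difference from the untreated group was -1.43. Osbpl5, Trpm5, Kcnq1ot1 and Shank2 followed the direction of Cd81. For Osbpl5 the values were 584 and 559 in depleted, 903, 1025 and 928 in toxin control and 666, 649, 595, 621 and 621 in untreated libraries, a narrow band in each group, with a log2 difference of 0.59 for toxin control minus untreated and -0.73 for depleted minus toxin control.

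Trpm5 stood at 45.0 and 70.0 in depleted, 226, 183 and 313 in toxin control and 111, 93.7, 86.1, 126 and 66.3 in untreated libraries (log2 differences 1.31 and -2.05 for the same pairs). Kcnq1ot1 stood at 1525 and 1625 in depleted, 2196, 2675 and 2143 in toxin control and 1256, 1566, 1638, 1612 and 1985 in untreated libraries (log2 differences 0.54 and -0.56). In both genes the lowest toxin control library lay above the highest Tcrd-GDL library. For Kcnq1ot1 the margin was smaller than the spread within the toxin control group and within the untreated group. The widest gap in this direction was that of Shank2, at 6.58 and 11.7 in depleted, 88.6, 92.2 and 161 in toxin control and 14.9, 15.6, 3.74, 9.35 and 7.75 in untreated libraries (log2 differences 3.43 and -3.50). In culture Shank2 read 24.3, 45.9 and 39.5 with gamma delta T cells and 22.4, 41.9 and 28.6 alone, and in experiment 1 it read 0, 1.05 and 0 in depleted and 1.19, 0 and 6.78 in untreated libraries. In reads, the 9 Tcrd-H2BeGFP libraries held 23 to 228 each and the 13 Tcrd-GDL libraries 0 to 18. In all 9 genes with a mean of at least 10, the toxin control values overlapped neither Tcrd-GDL group, and in each comparison the difference passed an adjusted p under 0.05, taken as the basis of their choice. Among all 13364 tested genes of experiment 2 the adjusted p fell under 0.05 in 15.7% for toxin control minus untreated and in 9.07% for depleted minus toxin control, and the groups did not overlap in 23.4% and 42.1%. These 2 comparisons share the toxin control libraries. In bulk samples, fewer cells of a type and less RNA per cell cannot be told apart.

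**Figure D1:**
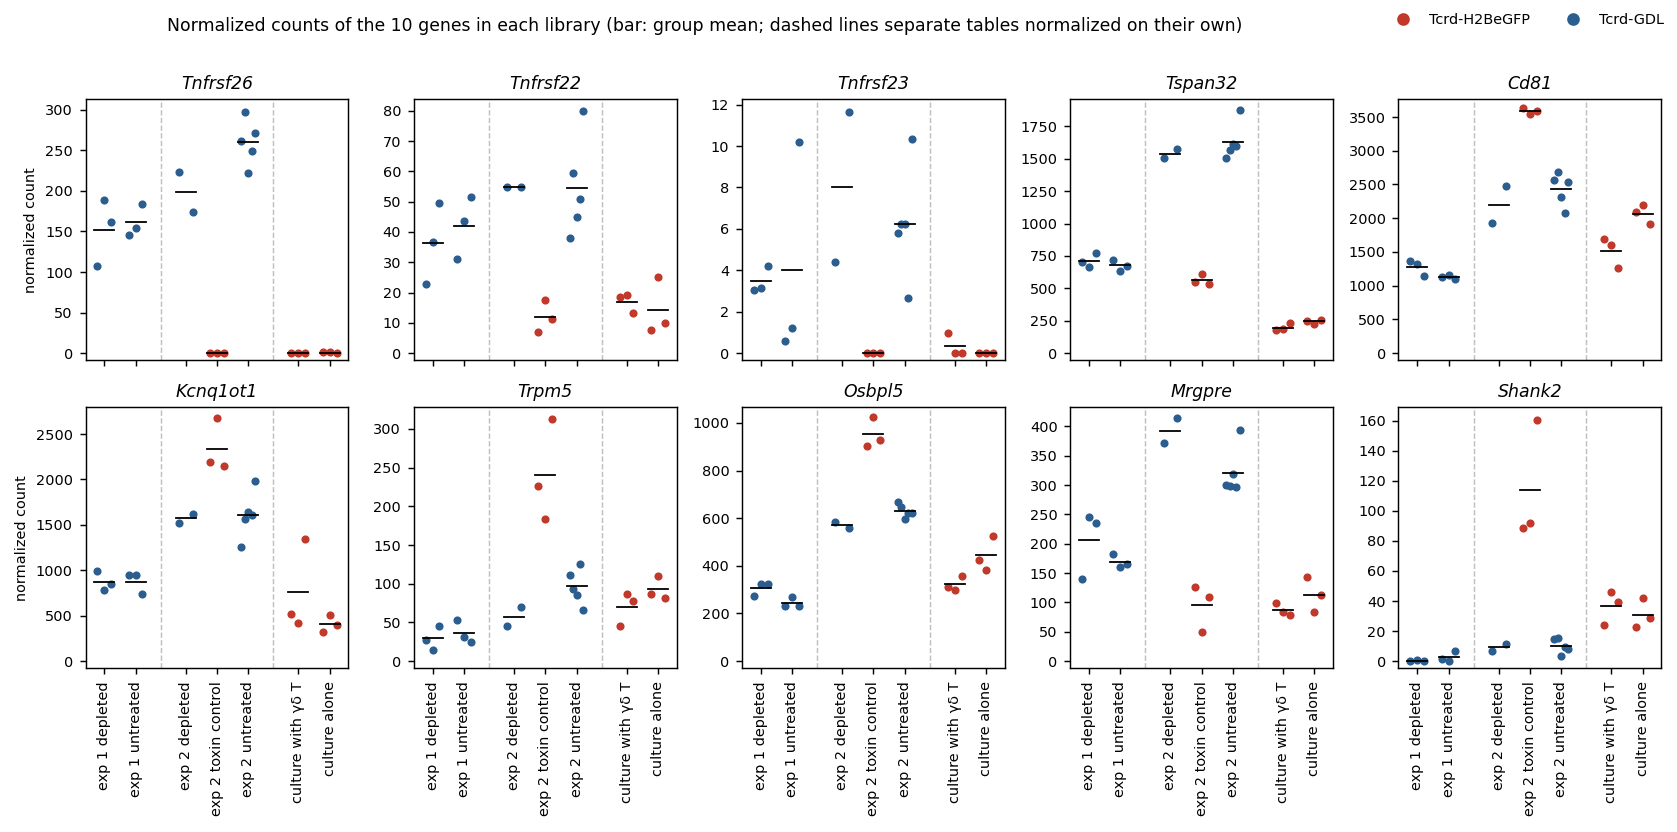
Normalized counts (vertical axis, a scale of its own in each panel) of the 10 genes in each of the 22 libraries, by group. Points are libraries, red for Tcrd-H2BeGFP and blue for Tcrd-GDL, bars are group means, and dashed lines separate tables that were normalized separately. Tnfrsf26 is at 0 in all 3 toxin control libraries and at or under 0.935 in the 6 culture libraries, and within experiment 2 Shank2 is highest in the toxin control.

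Transcripts of other cells also differed between the toxin control and the untreated group, which differ in both strain and toxin. Of 12 T cell markers, all tested, 6 were higher and 0 lower in the toxin control than in the untreated group, among them Tcf7 (log2 1.81 ± 0.39), Thy1 (2.01 ± 0.48) and Cd8a (1.41 ± 0.40), with limma's adjusted p of 0.00913, 0.0128 and 0.0286. The summed level of the 12 was 5932 to 6228 in depleted, 6863 to 7642 in toxin control and 5809 to 6825 in untreated libraries, none of the markers at 0 in any group, and most of it was Cd2, which B cells express too. Without Cd2 it was 754 to 991 in depleted, 1495 to 2305 in toxin control and 652 to 1878 in untreated libraries. Untreated replicate 8 held the 1878, above toxin control replicates 2 and 3. Of 7 NK cell markers 1 of 6 tested was higher (Ncr1), with sums of 87.7 to 197 in depleted, 316 to 455 in toxin control and 143 to 498 in untreated libraries. The B cell markers Cd93 (log2 0.81 ± 0.13, adjusted p 0.00232) and Ptprc (log2 0.41 ± 0.10, adjusted p 0.0163) were higher in the toxin control as well, and both encode markers of the sort, B220 being a form of the Ptprc product. The part of these cells and markers in the values of the 10 genes was not tested. Of the remaining marker lists, 0 of 7 tested macrophage and monocyte, 0 of 2 neutrophil, 0 of 6 dendritic cell, 0 of 4 plasma cell and 0 of 7 erythroid and platelet genes were called between toxin control and untreated libraries. Of the gamma delta T cell list Blk alone, which B cells express, had a mean of at least 10, so that list could not be assessed. For depleted minus toxin control, 2 of 12 T cell markers (Cd5 and Tcf7), 1 of 6 tested NK cell markers (Nkg7), 1 of 7 tested macrophage and monocyte markers (Lyz2) and 3 of 10 B cell markers (Cd93, Ptprc and Cd24a) were lower, and none was higher.

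Along the chromosome, the differences stood among genes that were not called. Of the 16 genes of the stretch that could be tested in experiment 2, the 9 named above were called in both strain comparisons and the other 7, R74862, Tssc4, Nap1l4, the snoRNA gene Gm23297, Cars, Nadsyn1 and Dhcr7, were called in neither. Nap1l4, a histone chaperone gene between Kcnq1ot1 and Tnfrsf26, averaged 2314 ± 23.4 in depleted, 2268 ± 88.5 in toxin control and 2131 ± 116 in untreated libraries (SD, n = 2, 3 and 5). Cars, which encodes a cysteinyl-tRNA synthetase and is the nearest other protein-coding gene on the side of Tnfrsf26 away from Tnfrsf22, averaged 484 ± 67.5, 582 ± 24.7 and 573 ± 59.0 in the same groups. Over the 3 Mb before the stretch 1 of 42 tested genes was called in both comparisons, the ribosomal protein gene Rplp2, and between the stretch and the end of the chromosome 0 of 5. Fadd, among these 5, was called for depleted minus toxin control (log2 0.52) and not for toxin control minus untreated (log2 -0.28, adjusted p 0.121, limma). On the rest of chromosome 7 the count was 47 of 923 genes (5.09%), and over all genes outside the stretch 734 of 13348 (5.5%). Since the 10 genes are taken to have been picked for these calls, nothing is read from their own share. Nor is anything read from the lack of calls among the other 7, which the same choice would leave.

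**Figure D2:**
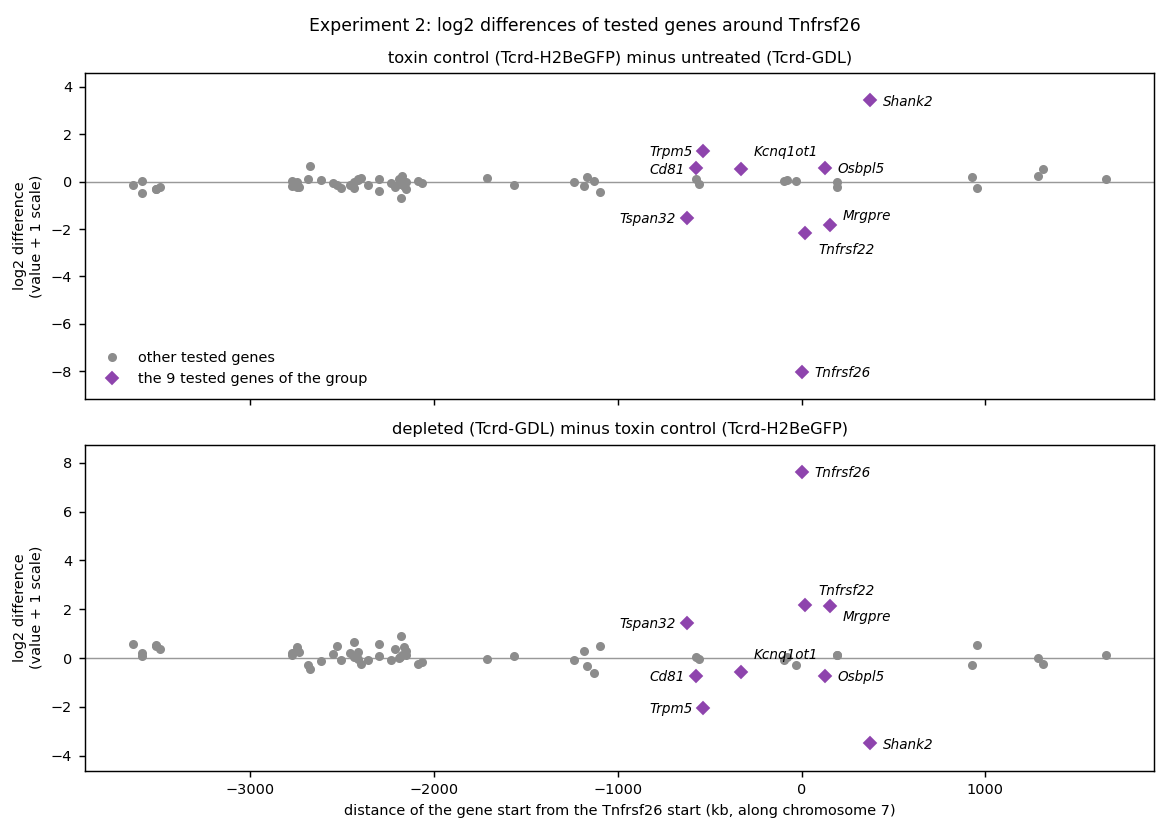
Log2 differences in experiment 2 (vertical axes, log2(value + 1) scale) for toxin control minus untreated (upper panel) and depleted minus toxin control (lower panel) against the distance of each tested gene's start from that of Tnfrsf26 (kb). Purple diamonds are the 9 tested genes of the group and grey circles the other tested genes. The diamonds run from -8.02 (Tnfrsf26) to 3.43 (Shank2) in the upper panel, and the fitted value of Tnfrsf26 depends on the pseudocount because the toxin control is at 0.

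Ratios of genes within a library do not depend on the scaling between libraries and allow all 22 libraries to be described together. The ratio of Tspan32 to Cd81 was 0.107 to 0.182 in culture with gamma delta T cells and 0.103 to 0.136 in culture alone. It was 0.148 to 0.173 in the toxin control. In Tcrd-GDL libraries it was 0.505 to 0.679 in depleted and 0.545 to 0.637 in untreated libraries of experiment 1, and 0.639 to 0.781 in depleted and 0.583 to 0.772 in untreated libraries of experiment 2. So the 9 Tcrd-H2BeGFP libraries all lay below the 13 Tcrd-GDL libraries, with toxin and without. The ratio of Mrgpre to Osbpl5 also left the strains apart, with group means of 0.273 in culture with gamma delta T cells, 0.255 in culture alone and 0.103 in the toxin control. In Tcrd-GDL libraries its means were 0.663 in depleted and 0.698 in untreated libraries of experiment 1 and 0.689 in depleted and 0.511 in untreated libraries of experiment 2.

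Shank2 to Osbpl5 averaged 0.114 in culture with gamma delta T cells, 0.0721 in culture alone and 0.120 in the toxin control, and the lowest of these 9 libraries was at 0.0529. The Tcrd-GDL libraries reached at most 0.0292. Tnfrsf26 to Osbpl5 averaged 0.489 in depleted and 0.663 in untreated libraries of experiment 1 and 0.347 in depleted and 0.413 in untreated libraries of experiment 2, and was at or under 0.00220 in every Tcrd-H2BeGFP library. The ratio of Tnfrsf22 to Osbpl5 overlapped between the strains. It ran from 0.00774 in the toxin control to 0.0654 in culture alone, and from 0.0573 in untreated libraries of experiment 2 to 0.223 in untreated libraries of experiment 1. The strain and the culture of the cells cannot be told apart in the libraries without toxin, and the ratios were picked with the values known. A ratio does not show which of its 2 genes differed.

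**Figure D3:**
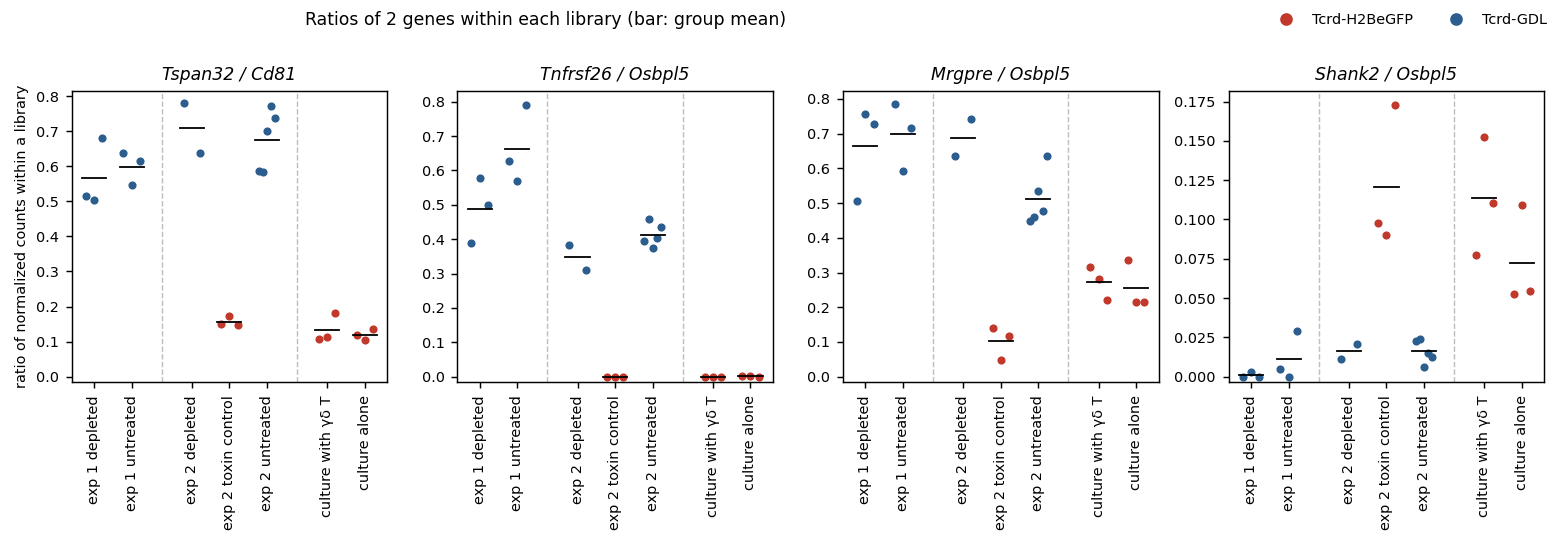
Ratios of normalized counts of 2 genes within each library (vertical axes, no unit) by group, with Tcrd-H2BeGFP libraries in red, Tcrd-GDL libraries in blue and bars at group means. In each of the 4 panels the 9 red points lie apart from the 13 blue points, as for Tspan32 over Cd81 with 0.103 to 0.182 in red and 0.505 to 0.781 in blue. The ratio of Tnfrsf22 to Osbpl5, which overlapped between the strains, is not drawn.

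Per kb of annotated exon, Cd81 was the highest of the 10 genes in untreated libraries of experiment 2, at 845 ± 84.7 normalized counts per kb (SD, n = 5). Tspan32 followed at 262 ± 22.8 and Osbpl5 at 128 ± 5.61. Mrgpre at 85.4 ± 11.1 and Tnfrsf26 at 81.0 ± 8.66 overlapped within their SD, as did Kcnq1ot1 at 17.3 ± 2.78, Trpm5 at 15.1 ± 3.57 and Tnfrsf22 at 12.96 ± 3.84. Within every one of these libraries, however, Kcnq1ot1 lay above Tnfrsf22. Tnfrsf23 at 1.58 ± 0.687 and Shank2 at 0.954 ± 0.465 were the lowest. In the toxin control the levels per kb were 1246 ± 16.3 for Cd81, 194 ± 13.1 for Osbpl5 and 90.4 ± 6.92 for Tspan32 (SD, n = 3), so Tspan32 stood behind Osbpl5 there. Trpm5 at 37.6 ± 10.3, Mrgpre at 25.5 ± 10.7 and Kcnq1ot1 at 25.1 ± 3.15 came next and overlapped within their SD. Shank2 at 10.6 ± 3.77 and Tnfrsf22 at 2.82 ± 1.24 followed. Within every toxin control library Trpm5 lay above Mrgpre. The exons of Kcnq1ot1 are annotated as 93092 unspliced bases, which lowers its level per kb beside spliced genes.

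Depletion of gamma delta T cells, compared within the Tcrd-GDL strain, gave no call among these genes in experiment 1. Of the 10, 8 had a mean of at least 10 and were tested (Tnfrsf23 and Shank2 were under it), and limma called 0 of 8 at an adjusted p under 0.05, beside 0 of all 11701 genes (0%). At an unadjusted p under 0.05 there was 1 of the 8, Osbpl5, and 1033 of all genes. On the recovered reads edgeR called 0 of the 8 and 0 of all genes, and DESeq2 called 0 of the 8 and 31 of all genes. Osbpl5 read 275, 325 and 323 in depleted libraries and 231, 270.1 and 232 in untreated libraries, and the groups did not overlap. Its log2 difference was 0.33 ± 0.13 (SE, adjusted p 0.518, n = 3 each, limma). It was the 1 of the 8 genes whose groups did not overlap, where 15.2% of all tested genes did not.

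Mrgpre read 139, 246 and 235 in depleted and 182, 159.9 and 166 in untreated libraries, so that depleted replicate 1 lay below the untreated libraries and the other 2 above them (log2 0.24 ± 0.21, adjusted p 0.746, limma). Without depleted replicate 1, the library that stood apart, limma called 1092 genes and 2 of the 8, Mrgpre at 0.51 (adjusted p 0.0249) and Osbpl5 at 0.41 (adjusted p 0.0429). Over the other alternatives the adjusted p of Mrgpre reached 0.952 and that of Osbpl5 0.911. Cd81 read 1370.3, 1314 and 1142 in depleted and 1135, 1162 and 1097 in untreated libraries (log2 0.17 ± 0.10) and Tspan32 705, 663 and 776 in depleted and 723, 633 and 674 in untreated libraries (log2 0.08 ± 0.10). For both tetraspanin genes the groups overlapped. Kcnq1ot1 (996, 782 and 846 in depleted, 945, 946 and 737 in untreated), Tnfrsf22 (22.9, 36.8 and 49.7 in depleted, 31.0, 43.6 and 51.7 in untreated) and Trpm5 (27.5, 14.7 and 45.5 in depleted, 53.7, 31.5 and 24.6 in untreated) overlapped as well. Tnfrsf26 differed by -0.11 ± 0.21 on the log2 scale (adjusted p 0.896), or by 0.12 without depleted replicate 1. The median log2 difference was 0.04 over the 8 genes and -0.01 over all tested genes. No marker gene of the 9 cell type lists was called. All 7 tested T cell markers had negative log2 differences, and the 12 summed to 1941 to 2473 in depleted and 2495 to 2704 in untreated libraries, with their part in the values above not tested.

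In experiment 2 the same comparison called 0 of the 9 tested genes (Tnfrsf23 was under the mean of 10), beside 40 of 13364 genes (0.299%). By DESeq2 and edgeR, 0 of the 9 were called too, and by limma's unadjusted p under 0.05 there was 1, Trpm5, and 1309 of all genes. Trpm5 had 45.0 and 70.0 in depleted libraries, against 66.3 to 126 in untreated libraries, so the groups overlapped by 1 library (log2 -0.74 ± 0.27, adjusted p 0.338, limma, n = 2 and 5). Tnfrsf26 averaged 199 ± 35.3 in depleted and 261 ± 27.9 in untreated libraries (log2 -0.39 ± 0.27, adjusted p 0.688). Mrgpre averaged 393 ± 29.9 in depleted and 321 ± 41.8 in untreated libraries (log2 0.30 ± 0.26, adjusted p 0.781). Osbpl5, at 584 and 559 in depleted libraries and 595 to 666 in untreated libraries, was the 1 gene of the 9 whose groups did not overlap, against 12.3% of all tested genes, and its difference of -0.14 ± 0.10 ran opposite to that of experiment 1 (adjusted p 0.710). Tspan32, Cd81, Kcnq1ot1, Tnfrsf22 and Shank2 differed by -0.15 to 0.05 on the log2 scale. The median over the 9 genes was -0.08 and over all genes -0.00237. These libraries also entered the strain comparisons by which the genes are taken to have been chosen, and the 2 depleted libraries share 1 estimate of the spread with the other groups. No marker gene was called here either. The 8 erythroid and platelet markers summed to 4402 and 363 in the depleted and 891 to 2455 in the untreated libraries, and their part was not tested.

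**Figure D4:**
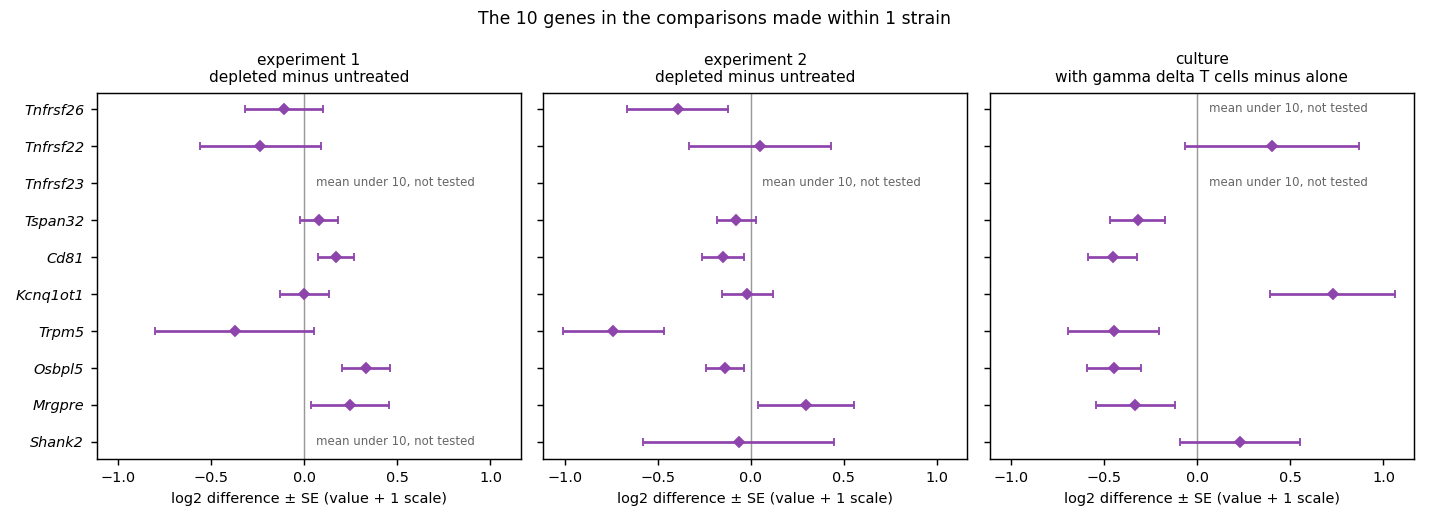
Log2 differences (horizontal axes, log2(value + 1) scale) of the 10 genes for depleted minus untreated in experiments 1 and 2 and for culture with gamma delta T cells minus alone. Diamonds are limma estimates and bars 1 SE, and genes with a mean under 10 carry no value. No gene passed an adjusted p under 0.05, and the estimates run from -0.74 (Trpm5, experiment 2) to 0.73 (Kcnq1ot1, culture).

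Immature B cells kept with gamma delta T cells had lower values of Cd81 and Osbpl5 than those kept alone, in differences that did not pass the test over all genes. Cd81 read 1686, 1603 and 1261 with gamma delta T cells and 2094, 2195 and 1911 alone (log2 -0.45 ± 0.13, adjusted p 0.113, limma, n = 3 each). Osbpl5 read 313, 300.5 and 358 with gamma delta T cells and 424, 384 and 524 alone (log2 -0.45 ± 0.15, adjusted p 0.165). In both genes every library with gamma delta T cells lay below every library alone, 2 of the 8 tested genes, where 18.4% of all tested genes had groups that did not overlap. The groups did not overlap either in 3 of the other 7 tested genes of the stretch. These were R74862, lower with gamma delta T cells, and Cars and Dhcr7, both higher. Cars differed by 0.50 ± 0.14 on the log2 scale (adjusted p 0.0956, limma). Tspan32 read 179.8, 183 and 229 with gamma delta T cells and 251, 227 and 259 alone (log2 -0.32 ± 0.15, adjusted p 0.392), with an overlap of 1 library. Limma called 0 of the 8 genes (Tnfrsf26 and Tnfrsf23 were under the mean of 10), beside 267 of 12386 (2.16%), and 4 of the 8 had an unadjusted p under 0.05, namely Cd81, Osbpl5, Tspan32 and Kcnq1ot1, as had 1563 of all genes. DESeq2 and edgeR also called 0 of the 8. Without replicate 3 with gamma delta T cells limma called 678 genes and 1 of the 8, Osbpl5 at -0.52 (adjusted p 0.0327), and over the other alternatives its adjusted p reached 0.502.

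Kcnq1ot1 read 520.1, 414 and 1344 with gamma delta T cells and 318, 504 and 399 alone, so 1 library, replicate 3 with gamma delta T cells, set the difference of 0.73 ± 0.33 (adjusted p 0.395, limma), which was 0.22 without it. Replicates 3 of both groups were male. Trpm5 read 45.7, 86.6 and 77.2 with gamma delta T cells and 86.9, 111 and 82.2 alone, and Mrgpre 99.2, 84.4 and 79.0 and 143, 82.9 and 112 in the same order. In both genes the groups overlapped, as they did in Shank2 and Tnfrsf22. The median log2 difference was -0.33 over the 8 genes, 5 of them negative, 0.07 over the other 7 tested genes of the stretch and -0.00496 over all genes. Markers moved in culture too. Among T cell markers Lck, which activated B cells can also express, was higher (log2 0.71 ± 0.15, adjusted p 0.0297) and Cd5 lower (log2 -0.95 ± 0.21, adjusted p 0.0386) of 12 tested, and the 12 summed to 1800 to 2168 with gamma delta T cells and 2304 to 2411 alone. Among 4 tested plasma cell markers Xbp1 was higher (log2 1.07 ± 0.12, adjusted p 0.000246) and Sdc1 lower (log2 -1.78 ± 0.17, adjusted p 0.000107), with sums of 4091 to 5219 with gamma delta T cells and 4849 to 5414 alone. The B cell marker Cd24a was lower (log2 -0.79 ± 0.16, adjusted p 0.0233). Their part in the values of the 8 genes was not tested.

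Other genes of the same pathways, were looked up in lists of genes by function. Of the 13 genes of the TRAIL pathway, which include the ligand gene Tnfsf10, the death receptor gene Tnfrsf10b and the adaptor and caspase genes downstream, 0 of 11, 0 of 12 and 0 of 12 tested were called in experiment 1, in depleted minus untreated of experiment 2 and in culture, and 0 of 12 for toxin control minus untreated. Tnfsf10 averaged 151 ± 29.4 in depleted, 146 ± 25.4 in toxin control and 115 ± 10.7 in untreated libraries of experiment 2 (SD, n = 2, 3 and 5). Of 25 other receptor genes of the superfamily, 1 of 16 tested was called in culture, Tnfrsf19, at 8.40 ± 1.44 with gamma delta T cells and 38.7 ± 15.0 alone (log2 -2.01 ± 0.40, adjusted p 0.0198, limma). In culture 2.16% of all tested genes were called. Fas, the receptor of Fas ligand, was higher in the toxin control than in the untreated group (a mean of 132 in the toxin control and 75.9 in the untreated group, log2 0.80 ± 0.23, adjusted p 0.0317, limma), and so was Tnfrsf1b (log2 0.49 ± 0.15, adjusted p 0.0383, limma). The other 14 of the 16 tested were not called, where 15.7% of all tested genes were called. For depleted minus toxin control Fas, Tnfrsf21 and Tnfrsf19 were lower, 3 of 16 tested, where 9.07% of all tested genes were called. The adaptor gene Fadd of the TRAIL list, which lies beyond the end of the stretch, was higher in the depleted group (log2 0.52 ± 0.15, adjusted p 0.045, limma).

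Of 17 genes of the tetraspanin family and its membrane partners, 0 of 12, 0 of 15 and 0 of 12 tested were called in experiment 1, in depleted minus untreated of experiment 2 and in culture. For toxin control minus untreated 4 of 15 tested were called, where 15.7% of all genes were. Of these 1 was higher, Cd82 (log2 0.33 ± 0.08), and 3 were lower, among them Cd53 (log2 -0.66 ± 0.11) and Tspan31 (log2 -0.61 ± 0.14), with adjusted p of 0.0167, 0.00299 and 0.0103 by limma. Of 14 further genes of the imprinted cluster around Kcnq1ot1, 5 were tested in each comparison and 0 were called in any. This list leaves out the 10 genes, among them Cd81, Tspan32, Osbpl5 and Kcnq1ot1 itself. The 5 tested, Nap1l4, Cars, Tssc4, Nadsyn1 and Dhcr7, are uncalled genes of the stretch named above and no separate result. Of 24 paralogs of Osbpl5, Trpm5, Shank2 and Mrgpre, 0 of 11 tested were called in experiments 1 and 2 and 0 of 10 in culture. Kcnq1, on the strand opposite to Kcnq1ot1, held 0 to 5 reads a library. Cdkn1c, a cell cycle inhibitor gene silenced in cis by Kcnq1ot1, held 0 to 9 reads a library.

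Genes elsewhere followed Tnfrsf26 across the 10 libraries of experiment 2, which share their table and the split by strain. By Pearson's r of log2(value + 1) among 10597 genes with a mean of at least 50, the closest outside the 10 genes were Ftl1 (r 0.97), which encodes the ferritin light chain, C920009B18Rik (0.96), Dguok (0.96), a mitochondrial nucleoside kinase gene, Psmg2 (0.95) and Gm6654 (0.95). Ftl1 averaged 3022 in depleted, 2633 in toxin control and 3074 in untreated libraries, so its r of 0.97 goes with a small difference. The most opposite were Gm15446 (-0.97), Enox2 (-0.97) and Htatsf1 (-0.97). Gm15446 was at 4.46 in depleted, 254 in toxin control and 4.39 in untreated libraries. Among the 10 genes themselves r was 0.99 for Tspan32 and 0.92 for Mrgpre, and -0.95 for Osbpl5, -0.89 for Cd81, -0.85 for Trpm5 and -0.83 for Kcnq1ot1, values that the choice of the genes fixes in sign.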

How the data were processed

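Per the labels' protocols, the RNeasy Plus Micro kit served for extraction and the SMART-Seq Stranded Total RNA kit for library construction. The tools named were bcl2fastq and STAR 2.5.2b with the genome mm10, per the submitters' processing notes. How reads were counted, with which annotation and use of strand, and how libraries were scaled is not given in the sources used here. Each of 3 deposited tables holds normalized counts, a signal on which the authors put 1 scaling factor for each library, with every table scaled alone. All values (100%) were whole multiples of the worth of 1 read (tolerance 0.01), and depth is the sum of the reads recovered in this way. Gene identifiers matched GENCODE M21 in 98.9%, 98.8% and 98.8% of cases in experiment 1, experiment 2 and culture.

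Comparisons were tested with limma (3.58.1, R 4.3.3, with a trend) on log2(value + 1), keeping the 11701, 13364 and 12386 genes whose mean reached 10, with a Benjamini-Hochberg adjusted p under 0.05 over all tested genes and no minimum fold. The 3 groups of experiment 2 entered 1 fit, and the other tables were fitted with 2 groups each. Same-numbered libraries of different groups were not treated as pairs, since their deviations from the group means correlated at -0.04 to 0.05 in experiment 1, -0.12 in experiment 2 and -0.04 to 0.23 in culture. Alternatives were a pseudocount of 5, no filter, quantile normalization, DESeq2 (1.42.0) on recovered reads, only the 2 groups compared, a replicate block, leaving out each library and, added after the data were seen, edgeR's quasi-likelihood test (4.0.16) on recovered reads. The fits were tested on simulated data. Where a group was at 0, the fold is a bound from 3 reads in the group as a whole.

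The 10 genes, the gene lists, the lists of cell type markers and the ratios were chosen with earlier results of these data known. Named beside the 10 are other genes of the stretch that were called or stood apart in the toxin control, the genes at its borders, up to 3 called genes per list and comparison with the smallest p, and the 5 most and 3 least correlated with Tnfrsf26. The uncalled genes of the stretch, Tnfsf10, Kcnq1, Cdkn1c and Rplp2 were named after their values were seen. 1 result is not reported here.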

Additional observations from a re-analysis of the deposited data

Results flagged for a closer look

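In experiment 2, Mrgpre stood at 394 in untreated replicate 8, against 297 to 318 in the other 4 untreated libraries. The gap to the nearest library was 0.780 of the range of the group, above Dixon's critical value of 0.71 for 5 libraries. It was the 1 case among 10 groups of values examined, and chance gives about 1 in 20. The same library was the highest of the 5 for Tspan32 (1873), Kcnq1ot1 (1985), Tnfrsf22 (80.1) and Tnfrsf23 (10.3), and the lowest for Trpm5 (66.3). Its T cell markers other than Cd2 summed to 1878, against 652 to 884 in the other 4, and its NK cell markers to 498, against 143 to 254. The part of these cells in its values was not tested.

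Osbpl5 differed by 0.33 on the log2 scale for depleted minus untreated in experiment 1 and by -0.14 in experiment 2. All depleted libraries lay above all untreated libraries in experiment 1 and below them in experiment 2. The difference between the experiments was not tested, and neither value passed an adjusted p under 0.05.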

How the results depend on the processing

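Of 542 values under alternatives, of the 8 or 9 genes tested in each comparison, 508 were counted as unchanged. Another 19 reversed, all in depleted minus untreated, and 3 newly passed the threshold. The remaining 12, all between strains, moved beyond the spread in the same direction. Within a strain, unchanged means the same direction and call. Between strains it means the same direction and a shift within the spread, without regard to the call. By quantile normalization Kcnq1ot1 was 0.0061 in experiment 1 and Tnfrsf22 -0.0062 in experiment 2. With the replicate block Tspan32 was 0.0061 and Kcnq1ot1 0.17 in experiment 2. Leaving out each library gave, in experiment 1, Kcnq1ot1 -0.12 to 0.076, Tnfrsf26 -0.28 to 0.12, Tnfrsf22 -0.49 to 0.053 and Trpm5 -0.75 to 0.029. In experiment 2 it gave Tnfrsf22 -0.065 to 0.20, Kcnq1ot1 -0.10 to 0.060, Cd81 -0.33 to 0.028 and Shank2 -0.44 to 0.30. The Tnfrsf26 value for toxin control minus untreated, -8.02, was -5.73 with a pseudocount of 5, -10.55 by DESeq2 and -11.01 by edgeR.

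Genes called moved more. Experiment 1 had 0, against 2 with no filter and 31 by DESeq2. Experiment 2, depleted minus untreated, had 40, against 137 by DESeq2 and 5 with only the 2 groups. Culture had 267. With the replicate block these 3 comparisons had 0, 153 and 448 genes called, and 0 of the 10 genes in each, although the numbers are not shown to pair the libraries. In culture, replicates 1 and 3 correlated best with their own number and replicate 2 did not, and replicates 3 of both groups were male. Whether same-numbered libraries share a mouse was not tested. Depleted minus toxin control had 1212, against 725 with no filter and 442 with only the 2 groups, and toxin control minus untreated 2093. Leaving out 1 library gave 0 to 1092, 0 to 579, 103 to 678, 42 to 2712 and 196 to 2996 genes in the same order, and 0 to 2 of the 10 genes in experiment 1 and 0 to 1 in culture. For depleted minus toxin control, 5 of the 9 tested genes were called without depleted replicate 4, beside 42 of 13336 genes. Without toxin control replicate 2, 8 of the 9 were called there, beside 236 of 13363, and 8 for toxin control minus untreated, beside 196 of 13363. With any other library of the groups compared left out, all 9 were called. In experiment 2 the 0 and 42 came without depleted replicate 4, and the 579 and 2712 without depleted replicate 5. The 196 came without toxin control replicate 2, and the 2996 without untreated replicate 8, the library flagged above. The 1092 came without depleted replicate 1 of experiment 1. In culture the 678 came without replicate 3 with gamma delta T cells, and the 103 without replicate 1 of the cells kept alone. The cause was not tested.

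Depth limits Tnfrsf23, Shank2 in Tcrd-GDL libraries and Tnfrsf26 in Tcrd-H2BeGFP libraries, which rest on a few reads each. With 2 to 5 libraries a group, a value that misses the threshold does not show that the gene is unchanged.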
